A study of Drosophila melanogaster with 33 samples.

Results

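The comparison described here sets 3 larval brain samples of the l(3)mbt allele E2 raised at 29 °C against 3 wild-type (WT) samples of the strain w1118, out of 33 Drosophila melanogaster samples in all, 1 Affymetrix array each. Samples were chosen by their titles, and all 6 arrays were run at one site, IRB, among 24 arrays there. The E2 brains are homozygous for the allele. The lesion in E2, the larval age and the number of brains per sample are not stated in the labels, and neither is the temperature at which the WT larvae were raised. Allele, temperature and any difference in strain background therefore cannot be told apart against WT. A further 3 IRB groups of 3 arrays each serve for direct tests: E2 brains at 17 °C, brains transheterozygous for ts1 and E2 (ts1/E2) at 29 °C, and brains homozygous for the temperature-sensitive allele ts1 at 29 °C.

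The gene l(3)mbt, lethal (3) malignant brain tumour, encodes a chromatin protein with MBT repeats, which bind methylated histone tails. Its product is found with the dREAM and LINT repressor complexes and at insulator sites, and brains without it overgrow, chiefly in the optic lobe. Mutant brains are known for transcripts normally made in the germ line. Among these are genes of the piRNA pathway, in which small RNAs bound by Piwi proteins silence transposons in the gonad.

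The first E2 replicate stood apart from its group. Its 5′ probe sets for the control transcripts actin, GAPDH and eIF-4a lay 6.41, 10.53 and 11.96 log2 units below the 3′ probe sets, where the other 23 IRB arrays showed gaps of 0.68 to 1.22, 0.68 to 2.35 and 1.10 to 2.38. Across the 8191 genes tested, this replicate correlated with replicates 2 and 3 at 0.713 and 0.756, while those correlated with each other at 0.973 and the WT arrays at 0.976 to 0.984 (Pearson's r). Its values were a median of 0.50 log2 units below the mean of the other two. Differences and counts of calls are therefore given with all 3 E2 arrays, with the value without replicate 1 named as such or set in parentheses. The nervous system markers matched the labelled tissue: elav, the pan-neuronal RNA-binding protein, averaged 11.98 ± 0.23 (SD, n = 3) in E2 and 12.16 ± 0.04 in WT, and repo, the glial homeobox gene, averaged 10.72 ± 0.38 and 11.56 ± 0.10.

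Values are log2 expression values. Levels may carry a shift per probe set, so readings of background or expression rest on levels as deposited. A gene was called when limma, fitted over the 24 IRB arrays, gave a Benjamini-Hochberg adjusted p under 0.05 and a difference of at least 1 log2 unit, which is 2-fold. Of 8191 genes, 251 exceeded WT in E2 brains at 29 °C (3.06%) and 222 were lower (2.71%). Without replicate 1, 236 were higher (2.88%) and 96 were lower (1.17%). The higher calls largely remained: 196 genes were called higher both ways (2.39%), 55 were called only with replicate 1 and 40 only without it. The lower calls depended on it more. Of them 84 were called lower both ways (1.03%), 138 were lost without replicate 1 and 12 were gained. Among the 138, replicate 1 lay a median of 1.63 below the other E2 arrays, against 0.63 below for the 84. Its part in the difference between the counts was otherwise not tested. The median difference over all tested genes was -0.20 with all arrays and -0.02 without replicate 1. At an unadjusted p under 0.05, limma gave 2488 of the 8191 genes with all arrays, both directions together. List counts at that threshold are to be read beside this share. No label says that the arrays came from separate pools of larvae, so p-values here cover a spread between arrays that may be technical. That spread, like the SE, was pooled over the 8 IRB groups, transplanted tumours among them, and is not that of the compared arrays alone.

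**Figure D1:**
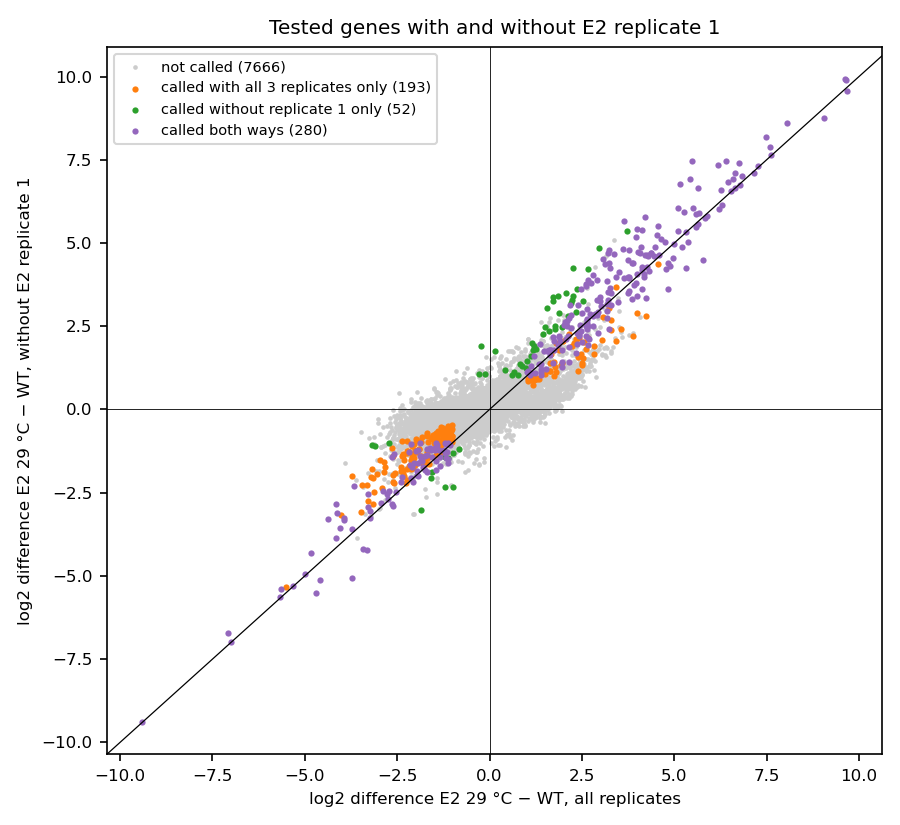
Each point is a tested gene, with the log2 difference between E2 brains at 29 °C and WT from all 3 E2 arrays on the x axis and without E2 replicate 1 on the y axis. The line marks equal values. Orange points, called only with replicate 1 (193 genes), gather on the lower side at small differences, while the 280 genes called both ways (purple) reach from about -9.40 to 9.67 on the x axis.

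The targeted gene was no check of the genotype. l(3)mbt measured 6.26, 8.69 and 8.19 in the E2 brains and 7.79, 7.86 and 6.91 in WT. The groups overlapped, and the difference of 0.20 ± 0.60 (SE) was not called (adjusted p = 0.845; 0.92 and 0.493 without replicate 1). Its second probe set differed by 3.09 with all arrays, so the 2 probe sets disagree, and where either lies relative to the E2 lesion is not known here.

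The largest rises were in genes near background in WT. Kots measured 12.22, 11.77 and 12.04 in E2 and 2.41, 2.36 and 2.26 in WT. Pxt, a peroxidase needed in oogenesis, measured 11.55, 12.18 and 12.46 against 2.22, 2.47 and 2.54. cona, which encodes a protein of the synaptonemal complex that pairs chromosomes in meiosis, measured 11.90, 12.73 and 12.91 against 2.67, 3.16 and 2.87. In these 3 genes each E2 array, replicate 1 included, lay at the bright end of the array's range and each WT array near its background. The differences were 9.67 ± 0.26, 9.65 ± 0.56 and 9.61 ± 0.27 (adjusted p = 8.26e-15, 1.13e-09 and 1.14e-14, limma), and 9.56, 9.91 and 9.92 without replicate 1.

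The mucin gene Muc14A followed at 12.32, 11.35 and 11.65 in E2 and 2.62, 3.04 and 2.54 in WT, a rise of 9.04 ± 0.37 (8.77 without replicate 1). Zip102B, a zinc transporter gene on the small chromosome 4, measured 9.93, 10.65 and 10.97 against 2.94, 2.94 and 2.93. Eip63E, a cyclin-dependent kinase, was the one among the 15 largest rises with a WT mean above 4. It measured 5.84, 5.57 and 5.56 in WT and reached 12.83, 13.07 and 12.89 in E2. No E2 array overlapped a WT array in any of these, which was a condition for choosing them. Eip63E rose by 7.27 ± 0.18 (7.33 without replicate 1) and Zip102B by 7.58 ± 0.20 (7.88).

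The other 9 of the 15 were CG13692, the receptor gene mthl8, CG15930, the testis thioredoxin TrxT, CG32313, the piRNA factor krimp, CG42299, the cilium gene BBS8 and CG11052. Their differences ran from 6.63 ± 0.54 for CG11052 to 8.04 ± 0.56 for CG13692, and from 6.66 for BBS8 to 8.61 for CG13692 without replicate 1. CG32313 measured 10.40, 10.85 and 11.01 in E2 and 3.34, 4.74 and 3.66 in WT. CG42299 and CG15930 were weakest in replicate 1, at 8.25 and 8.74 against at least 9.81 and 10.46 in the others, still far above WT. Of the 196 genes called higher both ways, 122 had a WT mean under 4, near background, so the size of their rise is not exact.

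**Figure D2:**
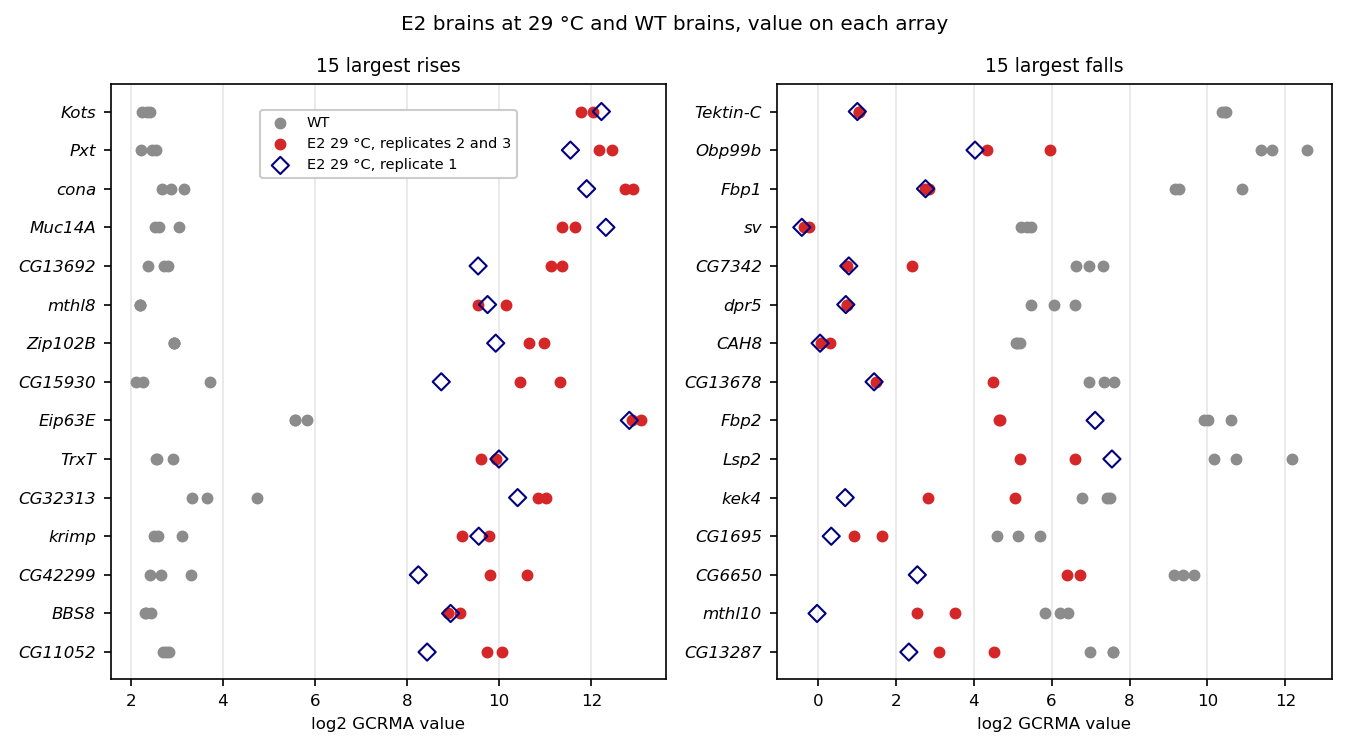
Log2 value on each array for the 15 largest rises (left) and 15 largest falls (right) among genes called with and without E2 replicate 1, with WT in grey, E2 replicates 2 and 3 in red and E2 replicate 1 as open diamonds. The groups are apart in every row by the rule that chose the genes; replicate 1 is the lowest E2 array by a wide margin in CG6650 (2.55) and mthl10 (-0.02) and the highest in Fbp2 (7.12).

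Genes of the piRNA pathway made up the most calls of any list. Of 30 tested, 11 rose, where 3.06% of all tested genes did, and 0 fell. By limma at an unadjusted p under 0.05, 15 were higher and 3 lower, beside 2488 of all 8191 tested genes in either direction. Without replicate 1 again 11 rose and 0 fell, with 14 and 0 at the unadjusted threshold. The median difference was 1.19 (1.15 without replicate 1), beside -0.20 (-0.02) over all tested genes.

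The Piwi proteins themselves were among them. piwi measured 8.34, 9.25 and 8.33 in E2 and 4.32, 4.13 and 4.12 in WT, and rose by 4.45 ± 0.37 (adjusted p = 1.99e-07). AGO3, a cytoplasmic partner in the amplification cycle, measured 8.57, 8.13 and 8.16 against 4.41, 3.64 and 3.87. aub, the other partner, measured 7.56, 8.41 and 8.30 against 4.44, 5.91 and 3.68. WT varied more for aub than for AGO3. AGO3 rose by 4.31 ± 0.62 (4.17 without replicate 1), and the rise of aub, 3.41 ± 0.99 (adjusted p = 0.0430), was not called without replicate 1 (3.68, adjusted p = 0.0757).

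Some Tudor-domain genes of the nuage, the perinuclear granule of germ cells where the pathway works, were called and others were not. krimp measured 9.56, 9.19 and 9.78 against 2.58, 3.11 and 2.51, and rose by 6.77 ± 0.29 (6.75). tej rose by 4.48 ± 0.48 (4.88 without replicate 1), while qin at 1.02 (1.35), tapas at 0.07 (0.38) and tud at -0.23 (-0.10) were not called. The helicase gene vas, the classic germ-cell marker, measured 9.23, 6.44 and 6.73 in E2 and 2.98, 3.59 and 3.12 in WT. Replicate 1 was here the highest E2 array, and the rise was 4.23 ± 0.87 with it and 3.35 without it. Boot, which acts in the export of piRNA precursors, rose by 4.53 ± 0.53 (5.23), spn-E, another helicase, by 2.90 ± 0.60 (2.85), and shu, a cochaperone that loads Piwi proteins, by 1.95 ± 0.43 (1.42).

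fs(1)Yb, which organises the Yb bodies of the somatic follicle cells, rose by 3.50 ± 0.89 (4.12) and its relative SoYb by 3.25 ± 0.45 (3.64). vret, another Tudor-domain gene, was at 1.23 ± 0.54 (1.20) and was not called, and BoYb was not among the tested genes. del, which with rhi marks piRNA clusters in chromatin, was the gene gained without replicate 1. It measured 6.15 there and 8.52 and 8.83 in the other E2 arrays, against 6.59 to 6.80 in WT, so the difference was 1.16 (adjusted p = 0.211) with replicate 1 and 2.002 (adjusted p = 0.0471) without it. The lowest members were Panx at -1.66 ± 0.74 and armi, a helicase also found in Yb bodies, at -1.11 ± 0.39, both not called, and both moved toward WT without replicate 1 (-0.38 and -0.54).

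**Figure D3:**
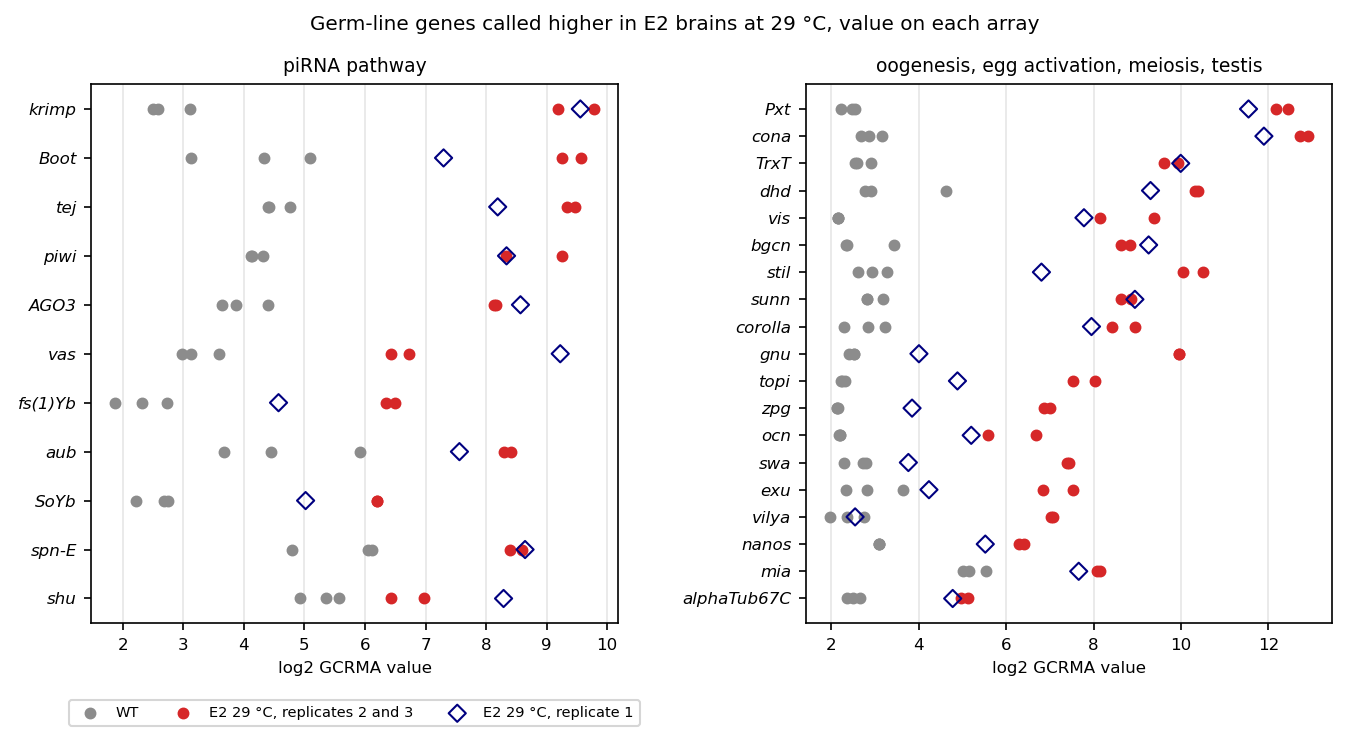
Log2 value on each array for the genes called higher with all arrays in the piRNA list (left) and in the oogenesis, egg activation, meiosis and testis lists (right), in the colours of the plot of the largest rises and falls. Replicate 1 sits among the other E2 arrays for krimp, TrxT and sunn, well below them for gnu, zpg, swa and vilya, and above them for vas and shu.

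Of 27 tested genes of germline stem cells and oogenesis, 7 rose (3.06% over all genes) and 0 fell, also without replicate 1; at an unadjusted p under 0.05, limma gave 12 higher and 3 lower (8 and 1 without replicate 1). Besides Pxt these were bgcn, stil, zpg, swa, exu and nanos. bgcn, which drives stem cell daughters to differentiate, measured 9.26, 8.62 and 8.83 in E2 and 3.42, 2.33 and 2.36 in WT, a rise of 6.20 ± 0.56 (6.02). nanos, a translational repressor of germ cells, measured 5.52, 6.40 and 6.30 against 3.09, 3.09 and 3.08. stil, a regulator of female germ cells, measured 6.81, 10.05 and 10.50 against 2.93, 3.28 and 2.61.

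Replicate 1 was the weakest E2 array for all of these but bgcn. zpg, a germ-cell gap junction gene, measured 3.85 in replicate 1 and 6.87 and 6.99 in the others, against at most 2.16 in WT. swa and exu, which localise maternal RNA in the oocyte, showed the same pattern, with 3.76 and 4.23 in replicate 1 and at least 6.83 in the others. Without replicate 1 the rises grew from 3.76 to 4.79 for zpg, from 3.60 to 4.82 for swa and from 3.27 to 4.25 for exu. The oocyte determinant osk ran the other way, at 8.58, 3.75 and 5.43 against 3.19 to 4.64 in WT, and was not called (2.08, adjusted p = 0.281; 0.75 and 0.910 without replicate 1).

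Egg activation and the maternal cell cycle gave 3 rises among 12 tested genes and 0 falls, both with and without replicate 1 (3.06% and 2.88% of all genes rose); 5 were higher and 1 lower at an unadjusted p under 0.05 (limma), 5 and 0 without replicate 1. dhd, the maternal thioredoxin, measured 9.30, 10.33 and 10.40 in E2 and 2.77, 2.90 and 4.61 in WT, a rise of 6.58 ± 0.67 (6.93). gnu, a subunit of the PNG kinase of the early embryo, measured 4.01 in replicate 1 and 9.95 in both others, against 2.41 to 2.51 in WT. That single array moved its rise from 7.47 to 5.49. alphaTub67C, the maternal tubulin, rose by 2.45 ± 0.39 (2.54).

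In the meiosis list, 4 of 16 tested genes rose and 0 fell, also without replicate 1 (3.06% and 2.88% of all genes rose); at an unadjusted p under 0.05, 5 were higher and 1 lower (limma), and 6 and 0 without replicate 1. cona was joined by corolla, a further protein of the synaptonemal complex, which rose by 5.66 ± 0.86 (5.90), and by sunn, a cohesion factor, at 8.95, 8.64 and 8.86 against 2.81, 3.17 and 2.82. vilya, which acts in meiotic recombination, measured 2.54, 7.03 and 7.07 in E2 and 2.74, 1.97 and 2.36 in WT. Replicate 1 lay within the WT range for vilya, so its rise of 3.20 ± 0.79 (adjusted p = 0.0199) became 4.70 without that array.

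The testis list went both ways, with 5 of 21 tested genes higher and 1 lower, with and without replicate 1 (3.06% and 2.71% over all genes). TrxT measured 9.995, 9.61 and 9.93 in E2 and 2.58, 2.54 and 2.92 in WT and rose by 7.16 ± 1.04 (7.09). vis, a homeodomain protein required for meiotic gene expression in spermatocytes, measured 7.78, 9.39 and 8.14 against 2.16 in each WT array, and its close tandem copy achi may bind the same probes. The spermatocyte regulator topi rose by 4.55 ± 0.90 (5.51), ocn by 3.63 ± 0.54 (3.94) and mia, a testis TAF, by 2.73 ± 0.34 (2.88).

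Tektin-C, a microtubule protein of sperm tails, had the largest difference of the genes called lower both ways. It measured 1.01, 1.05 and 1.04 in E2 and 10.44, 10.47 and 10.38 in WT. The arrays within each group lay within 0.10 of each other, and the difference was -9.40 ± 1.31 (adjusted p = 1.26e-04; -9.39 without replicate 1). It averaged 1.03 to 1.05 in each of the 4 mutant groups. That level lies below the lower quartile of the arrays compared, 2.25 to 2.30, so E2 was near background and the size of the fall is not exact. Of the 84 genes called lower both ways, 37 had an E2 mean under 4.

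**Figure D4:**
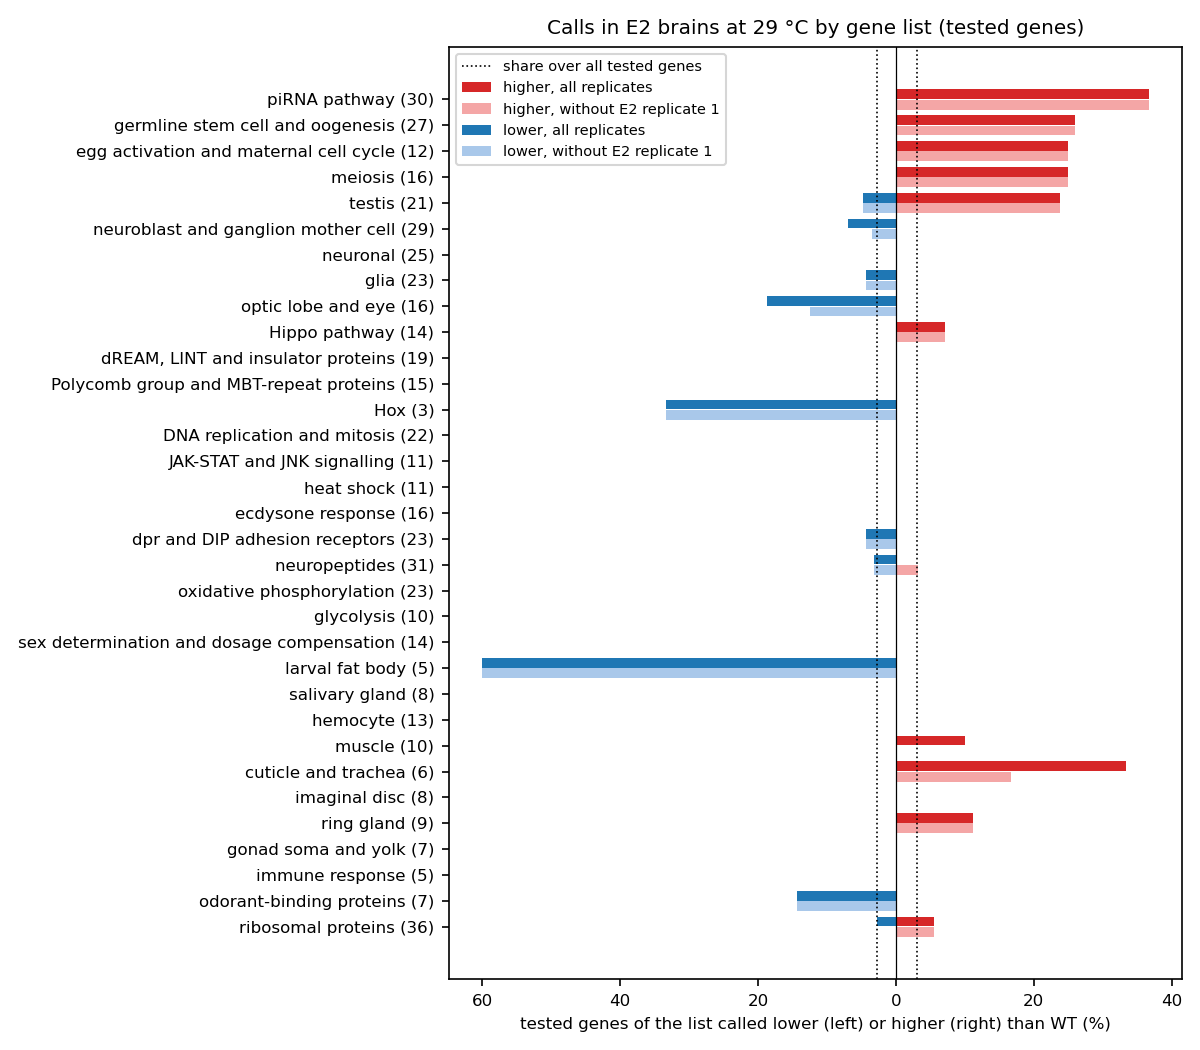
Share of the tested genes of each list called lower (left, blue) or higher (right, red) in E2 brains at 29 °C, set against WT, with all replicates (dark) and without E2 replicate 1 (light); the number tested stands in parentheses and dotted lines mark the shares over all tested genes. The 5 germ-line lists at the top have the longest red bars together with the small cuticle list, of which only 6 genes were tested, and larval fat body has the longest blue bar with 5 tested.

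The falls included genes of the larval fat body. Of 5 tested fat body genes, 3 fell, with and without replicate 1, beside 2.71% and 1.17% of all tested genes. The count was 1 when only the 6 compared arrays were fitted and 1 when all 33 were fitted with a site term. Fbp1, the receptor for larval serum proteins, measured 2.76, 2.76 and 2.84 in E2 and 10.89, 9.27 and 9.15 in WT, a difference of -6.99 ± 0.84 (-6.97). Lsp2, a storage protein of the blood, measured 7.55, 6.60 and 5.18 against 12.17, 10.72 and 10.16, and Fbp2 measured 7.12, 4.69 and 4.64 against 10.59, 10.01 and 9.90. The 2 fat body genes not called were apolpp, the lipoprotein precursor, at 13.03, 12.39 and 12.56 in E2 and 12.70, 12.60 and 12.43 in WT, and the lipid transfer gene Mtp, at 9.33, 9.22 and 8.97 against 9.62, 9.44 and 9.65.

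WT replicate 1 was the highest array for Fbp1, Fbp2 and Lsp2. The falls of Lsp2, -4.58 ± 1.24 (adjusted p = 0.0319; -5.13 and 0.0404 without replicate 1), and of Fbp2, -4.69 ± 0.98 (-5.50), had wider errors than that of Fbp1, -6.99 ± 0.84. In dissected brains, fewer cells of a type and less RNA per cell cannot be told apart. Obp99b, an odorant-binding protein gene, measured 4.03, 5.96 and 4.35 in E2 and 12.55, 11.66 and 11.37 in WT, a difference of -7.08 ± 1.14 (-6.71). It was the only gene called among 7 tested odorant-binding protein genes, with and without replicate 1, beside 2.71% and 1.17% of all tested genes lower.

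Other large falls touched regulators and membrane proteins. sv, the Pax2 homologue of sense organs and eye, measured -0.41, -0.22 and -0.35 in E2 and 5.22, 5.47 and 5.38 in WT, a difference of -5.68 ± 0.48 (-5.64). dpr5, a cell adhesion receptor of neurons, measured 0.72, 0.74 and 0.74 against 6.60, 6.06 and 5.46. CAH8, a carbonic anhydrase gene, measured 0.06, 0.30 and 0.08 against 5.12, 5.19 and 5.08. In these 3 the E2 arrays lay near background and were nearly equal and replicate 1 did not differ from the others by more than 0.25. dpr5 fell by 5.31 ± 0.34 (5.30) and CAH8 by 4.99 ± 0.20 (4.94). dpr5 was the single call among 23 tested receptors of the dpr and DIP families, where 2.71% of all tested genes fell.

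Of the remaining large falls, CG6650, mthl10 and kek4 rested in size partly on replicate 1. CG6650 measured 2.55, 6.39 and 6.72 in E2 and 9.65, 9.37 and 9.15 in WT, and its difference went from -4.17 ± 0.79 to -2.83 without replicate 1. mthl10, a receptor gene, went from -4.14 ± 0.65 to -3.12, and its second probe set differed by only -0.06. kek4, a leucine-rich repeat protein gene, went from -4.37 ± 0.94 to -3.29. CG7342, CG13678, CG1695 and CG13287 fell by 4.06 ± 0.55 (CG13287) to 5.65 ± 0.56 (CG7342), and by 3.56 (CG13287) to 5.38 (CG7342) without replicate 1.

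The 5 largest falls called only with replicate 1 were CG11170, Spt, beta4GalNAcTB, Cpr78E and CG9664, chosen for that loss and given as a description. CG11170 measured 1.92, 7.26 and 6.79 in E2 and 8.61, 9.02 and 9.49 in WT, and its difference went from -3.71 ± 0.95 (adjusted p = 0.0246) to -2.01 (adjusted p = 0.0532). Spt measured 2.85, 5.60 and 7.28 against 8.86, 8.71 and 8.52 and went from -3.45 ± 0.97 to -2.26 (adjusted p = 0.200). The glycosyltransferase gene beta4GalNAcTB went from -4.01 to -3.18 (adjusted p = 0.0660). The cuticle gene Cpr78E and CG9664 kept nearly their size, from -5.52 to -5.34 and from -3.47 to -3.07, but with adjusted p of 0.0856 and 0.136.

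Genes of the nervous system were read in 3 lists. Of 29 tested genes of neuroblasts, the stem cells of the brain, and ganglion mother cells, 2 fell and 0 rose, and 1 and 0 without replicate 1, beside 2.71% and 1.17% of all tested genes lower. At an unadjusted p under 0.05, limma gave 5 lower and 0 higher (3 and 0 without replicate 1). With all arrays, 2488 of all 8191 tested genes passed that threshold in either direction. Leaving out any 1 of the WT replicates left 0 called. ase, a proneural factor of neuroblasts, measured 9.38, 9.36 and 9.42 in E2 and 10.53, 10.39 and 10.42 in WT, a difference of -1.06 ± 0.26 (adjusted p = 0.0206; -1.05 and 0.0447 without replicate 1) that lies close to both thresholds. tll, a nuclear receptor of the optic lobe and its neuroblasts, measured 6.29, 8.11 and 8.98 against 9.69, 9.95 and 10.001, and its fall of 2.08 was not called without replicate 1 (-1.33, adjusted p = 0.158). dpn, the neuroblast marker, lay at 6.86, 7.20 and 7.47 against 8.52, 8.63 and 8.34 and was not called (adjusted p = 0.0753; 0.244).

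Of 23 tested glial genes 1 fell with and without replicate 1, beside 2.71% and 1.17% of all tested genes. It was gcm2, a glial determinant that also marks lamina precursors, at 2.13, 2.86 and 2.72 against 5.34, 5.28 and 5.39 (-2.77 ± 0.53; -2.55). Of 25 neuronal genes 0 were called, with 3 lower and 0 higher at an unadjusted p under 0.05 (limma), and 0 each way without replicate 1.

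Among 16 tested genes of the optic lobe and eye, 3 fell (2 without replicate 1) and 0 rose, beside 2.71% (1.17%) over all genes. At an unadjusted p under 0.05, limma gave 4 lower and 0 higher (3 and 0 without replicate 1). With all arrays, 2488 of all 8191 tested genes passed that threshold in either direction. The count of falls was 0 when only the 6 compared arrays were fitted. ato, the proneural factor of photoreceptors, measured 0.90, 4.89 and 0.96 in E2 and 6.30, 5.71 and 6.58 in WT, with a wide spread in E2 and a difference of -3.95 ± 0.87 (-3.27, adjusted p = 0.0491). The homeobox gene Rx fell by 1.84 ± 0.34 (1.52). shg, E-cadherin, fell by 3.29 ± 0.80 and was not called without replicate 1 (-2.75, adjusted p = 0.0861). The list's median was -0.49 (-0.29), beside -0.20 (-0.02) over all genes.

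The Hippo pathway limits growth, and its targets mark tissue where the coactivator yki is active. Of 14 tested members 1 rose and 0 fell, also without replicate 1, where 3.06% (2.88%) of all tested genes rose. At an unadjusted p under 0.05, limma gave 5 higher and 2 lower (2 and 0 without replicate 1). With all arrays, 2488 of all 8191 tested genes passed that threshold in either direction. The count of rises was 0 when only the 6 compared arrays were fitted. crb, the apical polarity gene, measured 10.13, 8.49 and 8.61 in E2 and 6.48, 6.71 and 6.01 in WT, a rise of 2.68 ± 0.50 (2.15, adjusted p = 0.0132). fj, a target of the pathway, lay higher in each E2 array than in each WT array, at 9.14, 7.51 and 8.002 against 6.38, 5.96 and 4.21, but the difference of 2.70 ± 1.18 was not called (adjusted p = 0.139; 0.469). Among all tested genes, 34.2% had E2 and WT values that did not overlap.

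Single members were called in a few further lists, beside 3.06% of all tested genes higher and 2.71% lower (2.88% and 1.17% without replicate 1). Dfd was lower among 3 tested Hox genes, by 1.45 ± 0.30 (1.54), from a WT level of 4.38, 4.40 and 3.26. Dh44, a diuretic hormone, was lower among 31 neuropeptide genes, by 1.75 ± 0.36 (1.39), and Capa was called higher only without replicate 1 (1.76, adjusted p = 0.0414). Of 36 ribosomal protein genes, 2 rose and 1 fell: RpS5b and RpS19b, both gonad-enriched paralogues, rose by 3.86 ± 0.35 (4.40) and 2.49 ± 0.56 (2.36), while RpL27 fell by 1.06 ± 0.15, short of the fold threshold without replicate 1 (-0.94).

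RpS5b measured 11.08, 12.67 and 12.74 in E2 and 8.43, 7.97 and 8.53 in WT. In 31 of the 36 ribosomal protein genes, and in 22 of 23 genes of oxidative phosphorylation, replicate 1 was the lowest E2 array. The share of all tested genes with replicate 1 lowest was not counted. Over all of them its median difference from the mean of the other E2 arrays was -0.50.

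Markers of other tissues were read for what else the dissections held, beside 3.06% (2.88% without replicate 1) of all tested genes higher. The ring gland list gave 1 rise among 9 tested genes: tor, the receptor kinase through which the prothoracic gland responds to PTTH, measured 7.82, 7.69 and 7.95 against 2.21, 2.49 and 2.79 and rose by 5.32 ± 0.53 (5.32). The steroid synthesis gene sad varied within the group, at 9.58, 11.10 and 4.88 in E2 and 4.87 to 5.30 in WT, and was not called (adjusted p = 0.243; 0.643). The mean level of the list was 8.10, 8.73 and 6.33 on the E2 arrays and 5.21 to 6.10 in WT.

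Of 10 muscle genes, 1 was called higher, beside 3.06% of all tested genes. It was sls, the giant sarcomere protein, whose rise of 3.29 ± 0.78 was not called without replicate 1 (2.39, adjusted p = 0.0818). Replicate 1 was the highest E2 array for 9 of the 10, and the list averaged 7.54 on it, 4.93 and 5.33 on the others and 4.50 to 5.39 in WT. How often replicate 1 was highest over all tested genes was not counted. Of 6 cuticle and tracheal genes, 2 rose (1 without replicate 1), beside 3.06% (2.88%) of all tested genes. TwdlE rose by 4.96 ± 0.80 (4.56) and Lcp65Ad by 1.93 ± 0.54 (1.35, not called). The list averaged 7.30 on replicate 1 and 5.68 and 5.96 on the other E2 arrays, against 4.47 to 4.78 in WT. The part of these tissues in the calls was not tested.

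No member was called in 15 lists of 207 tested genes in all, with all arrays or without replicate 1, while limma at an unadjusted p under 0.05 gave 6 higher and 28 lower with all arrays, and 8 and 8 without replicate 1. Beside the neuronal genes these were the dREAM, LINT and insulator proteins, the Polycomb group and MBT-repeat proteins, DNA replication and mitosis, JAK-STAT and JNK signalling, heat shock, ecdysone response, oxidative phosphorylation, glycolysis, sex determination and dosage compensation, and the markers of salivary gland, hemocytes, imaginal discs, gonad soma and yolk, and immune response. The partners of l(3)mbt in the first of these had a median of -0.42 (-0.24 without replicate 1) over 19 tested genes, with 6 lower and 0 higher at an unadjusted p under 0.05, and 2 and 0 without replicate 1. Over all tested genes, 2488 of 8191 passed that threshold with all arrays, both directions together. The salivary gland genes averaged 7.28 on WT replicate 1 and 4.63 and 4.77 on the other WT arrays. On E2 replicate 1 they averaged 6.85, and on the other E2 arrays 4.43 and 4.56.

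The E2 brains at 17 °C served to ask which of these differences depend on temperature within the allele. Between 29 °C and 17 °C, 227 of 8191 genes were higher (2.77%) and 171 lower (2.09%), and 247 (3.02%) and 89 (1.09%) without replicate 1. This contrast uses the same E2 arrays at 29 °C as the contrast with WT, so the calls are not independent. Of the 15 largest rises 13 were higher at 29 °C than at 17 °C, and of the 15 largest falls 8 were lower, with and without replicate 1.

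Kots averaged 3.02 ± 0.64 (SD, n = 3) at 17 °C, against 12.01 ± 0.23 at 29 °C, and differed by 8.99 ± 0.26 (SE; 8.88 without replicate 1). krimp averaged 2.43 ± 0.22, with a difference of 7.08 ± 0.29 (7.05), and cona 5.57 ± 0.25, with a difference of 6.94 ± 0.27 (7.25). Zip102B and Eip63E were the rises not called. At 17 °C they averaged 11.42 ± 0.13 and 13.35 ± 0.20, so their levels in E2 brains were far above WT at both temperatures. mthl8 lay between, at 7.56 ± 0.35, and was 2.25 ± 0.30 higher at 29 °C.

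Among the falls, Tektin-C (1.05 ± 0.01), dpr5 (0.74 ± 0.01) and CAH8 (0.08 ± 0.03) averaged about the same at 17 °C as at 29 °C, and their differences between temperatures, -0.01, -0.01 and 0.06, were not called. At 17 °C, Obp99b averaged 12.71 ± 0.93, Lsp2 12.83 ± 1.20, Fbp2 9.94 ± 1.27 and mthl10 6.19 ± 0.57. Their WT means were 11.86, 11.02, 10.17 and 6.15, so Obp99b and Lsp2 lay above WT and the others near it. E2 at 17 °C was not tested against WT here. These genes were lower at 29 °C than at 17 °C, with differences of -7.93 (-7.56), -6.39 (-6.94), -4.46 (-5.28) and -4.18 (-3.16). Fbp1 averaged 8.10 ± 2.08 at 17 °C, below its WT mean of 9.77, and was also lower at 29 °C, by -5.31 (-5.30). Of the germ-line lists, 8 of 30 piRNA genes, 7 of 27 oogenesis genes, 3 of 12 egg activation genes, 6 of 16 meiosis genes and 4 of 21 testis genes were higher at 29 °C, beside 2.77% of all tested genes, and 9, 7, 4, 6 and 4 without replicate 1, beside 3.02%. vis, at 7.78 on average at 17 °C, was not among them.

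**Figure D5:**
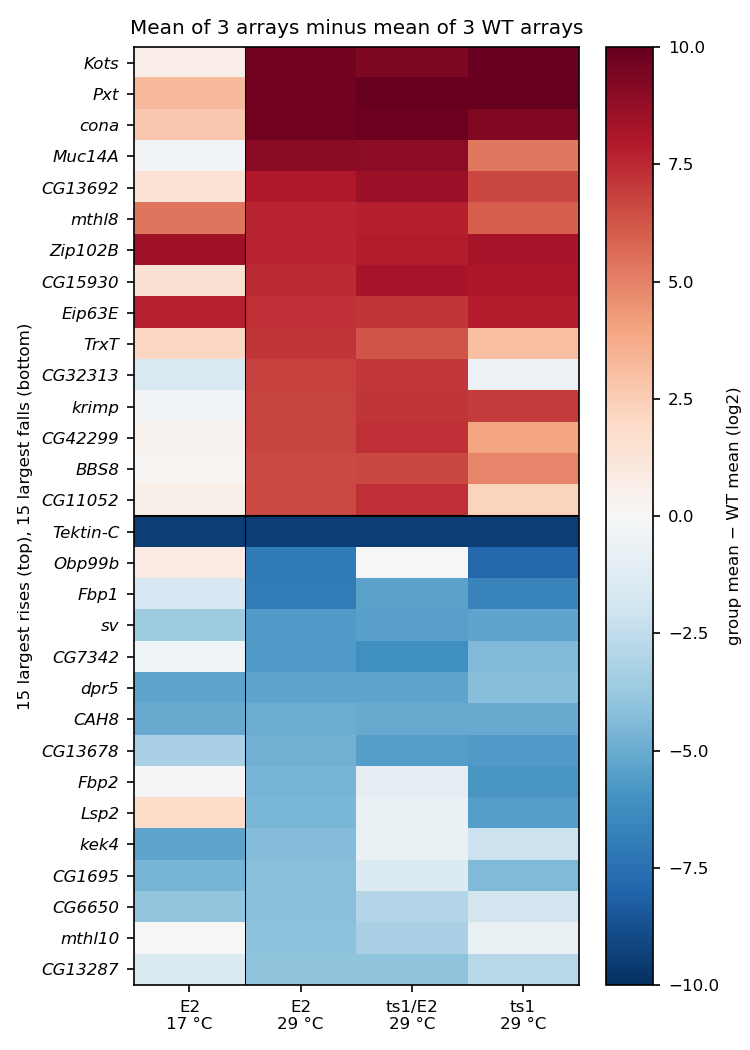
Mean of each group of 3 arrays minus the WT mean (log2, colour scale) for the 15 largest rises (top) and falls (bottom), in E2 brains at 17 °C, E2 at 29 °C, ts1/E2 at 29 °C and ts1 at 29 °C. Zip102B, Eip63E, Tektin-C, dpr5 and CAH8 have about the same colour in all 4 columns; CG32313 and CG11052 are strong in the E2 and ts1/E2 columns at 29 °C and weak in ts1, and Obp99b is blue in E2 and ts1 at 29 °C only.

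Few genes were called between the E2 homozygotes and the transheterozygotes ts1/E2 at 29 °C. limma called 2 of 8191 genes higher in E2 (0.0244%) and 5 lower (0.061%), and 2 (0.0244%) and 4 (0.0488%) without replicate 1. CG34282 and CG14300 were higher, by 4.08 ± 0.43 (3.86) and 3.19 ± 0.47 (3.52), and both were at their WT level in ts1/E2. CG1695, CG8701, Damm, Obp99b and Pde9 were lower, of which Damm (adjusted p = 0.0548) and Obp99b were not called without replicate 1. Obp99b averaged 11.88 ± 0.71 in ts1/E2, near WT, and differed by -7.10 ± 1.14 (adjusted p = 0.00861), with an adjusted p of 0.0651 without replicate 1, and CG1695 differed by -2.77 ± 0.30 (-2.45). A difference that was not called does not show equal levels.

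Against ts1 homozygotes at 29 °C, 271 genes were higher in E2 (3.31%) and 87 lower (1.06%), and 525 (6.41%) and 91 (1.11%) without replicate 1. Of the 15 largest rises, 5 were higher in E2 than in ts1, and 7 without replicate 1. CG32313 averaged 10.75 in E2 and 3.34 ± 2.003 in ts1, a difference of 7.41 ± 0.70 (7.59), and CG11052 differed by 4.41 ± 0.54 (4.90), TrxT by 4.14 ± 1.04 (4.07), Muc14A by 3.77 ± 0.37 (3.50) and mthl8 by 1.63 ± 0.30 (1.67). mthl10 was lower, by 3.37 ± 0.65 (2.36).

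In the same contrast, single germ-line genes were higher in E2. piwi averaged 4.43 in ts1, near its WT level, against 8.64 in E2, a difference of 4.21 ± 0.37 (4.37), and bgcn 3.85 against 8.90, stil 3.74 against 9.12, nanos 3.13 against 6.08 and alphaTub67C 2.75 against 4.96. These E2 means include replicate 1, which was the weakest E2 array for stil and nanos. krimp, Pxt, cona and dhd were not called between the 2 genotypes. In all, 2 of 30 piRNA genes and 3 of 27 oogenesis genes were higher in E2 than in ts1, beside 3.31% of all tested genes, and 2 and 6 without replicate 1, beside 6.41%. Of 12 egg activation, 16 meiosis and 21 testis genes, 1, 1 and 2 were higher, and 2 each without replicate 1. With all arrays 0 members of these lists were lower. Without replicate 1, 1 egg activation gene and 2 testis genes were lower, beside 1.11% of all tested genes. Of the ts1 arrays, replicates 5 and 6 had low array weights, 0.321 and 0.189, against 3.41 for replicate 4, and their part in these calls was not tested beyond leaving each out.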

How the data were processed

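Total RNA of larval brains and of transplanted tumours had been hybridised to Affymetrix arrays, 1 per sample. Per the labels and the submitters' processing notes, the deposited values are log2 expression values that the authors made with GCRMA, a method that uses the probe sequence to correct background before it normalises and summarises each probe set. Version and settings of GCRMA are not given in the sources used here. The WT mean at IRB equalled that at the other site for every probe set (largest difference 6.7e-09), so the deposited values of at least 1 site were shifted per probe set, and which is not stated in the sources used here. Differences between IRB arrays do not contain such a shift, but levels may.

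Of 18952 probe sets, 183 controls were left out, 13647 named 1 gene, 402 named several and 4720 were not listed in the annotation. Each of 11982 genes was represented by its brightest probe set over the 24 IRB arrays, and the test kept the 8191 genes that exceeded 4 on 3 or more of these arrays. Of the 11982, 11893 matched RefSeq symbols. In R 4.3.3, limma 3.58.1 fitted the 8 IRB groups in 1 model with empirical Bayes moderation. Benjamini-Hochberg adjustment ran over all 8191 genes. The fit was repeated without E2 replicate 1. On simulated data for the E2 contrast with WT over 8191 genes, it recovered 60 of 100 genes changed by 2 log2 units and 81 of 100 changed by 3, with 8 unchanged genes called. The simulated noise was normal, independent and of equal spread on all arrays for a gene. No simulated array was like E2 replicate 1, so these counts do not cover its effect. Arrays have no read depth, and 3 per group limits the precision. SD is over arrays and SE from the model.

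The named genes are l(3)mbt, the 15 largest rises and 15 largest falls called with and without replicate 1 with no overlap between groups and a higher mean above 4, the 5 largest falls lost without replicate 1, and up to 5 called genes each way in each of 33 gene lists. The comparison, the members and the lists were chosen with earlier results of these data known. Same-numbered arrays of E2 and WT correlated at -0.217, -0.052 and -0.252 in their deviations from the group means, so replicate numbers were taken as names only. Promoter and protein sequences were not used here.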

Additional observations from a re-analysis of the deposited data

Results flagged for a closer look

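Some of the 30 genes with the largest differences from WT differed between E2 brains at 29 °C and another mutant group by a direct limma test, which is what marked them for a closer look; all values are log2 differences with the mean of E2 at 29 °C first, and the explanations were not tested. Against E2 at 17 °C the higher genes were Muc14A by 9.36, Kots by 8.99, CG32313 by 8.37, krimp by 7.08, cona by 6.94, CG13692 by 6.56, Pxt by 6.42, CG42299 by 6.39, BBS8 by 6.36, CG11052 by 6.01, CG15930 by 5.96, TrxT by 5.10 and mthl8 by 2.25. The lower genes against 17 °C were Obp99b at -7.93, Lsp2 at -6.39, Fbp1 at -5.31, CG7342 at -5.20, Fbp2 at -4.46, mthl10 at -4.18, CG13287 at -2.62 and sv at -2.12. All of these were also called without E2 replicate 1.

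Against ts1 at 29 °C, CG32313 was higher by 7.41, CG11052 by 4.41, TrxT by 4.14, Muc14A by 3.77 and mthl8 by 1.63, and mthl10 differed by -3.37. Against ts1/E2 at 29 °C, Obp99b differed by -7.10 and CG1695 by -2.77. Of these, Obp99b against ts1/E2 was the one not called without replicate 1, with an adjusted p of 0.0651.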

How the results depend on the processing

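Direction was followed for 78 genes only, the named genes and the list members called with all arrays. It was judged where such a gene was called in the fit described above or in the alternative, which left out l(3)mbt. Other called genes were not checked for it. No gene so judged reversed its direction under any alternative. The 15 largest rises were called under all of them, and among the 15 largest falls the call was lost in 12 fits, 6 of these when only the 6 compared arrays were fitted; Lsp2 lost it in 6. The counts moved more than the genes. Fitting only the 6 arrays gave 101 higher and 33 lower genes, and 69 calls against E2 at 17 °C, 0 against ts1/E2, and 1 higher and 0 lower against ts1, while against WT without E2 replicate 1 it gave 306 higher and 140 lower. All 33 arrays with a site term gave 450 lower genes, 3 calls against ts1/E2 and 143 lower genes against ts1. Leaving out the 3 arrays that stand apart (E2 29 °C replicate 1, E2 17 °C replicate 2, ts1 replicate 6) gave 142 lower genes, and 479 higher and 168 lower against ts1. Array weights, with E2 replicate 1 at 0.027, gave 383 higher genes, 360 higher and 224 lower without replicate 1, 15 calls against ts1/E2, and 766 higher and 277 lower against ts1. Against ts1, median scaling gave 283 lower genes and renewed quantile normalization 199. The causes were not tested.

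Leaving out 1 array at a time gave 164 to 569 higher and 79 to 1411 lower genes against WT. The upper ends were reached without E2 replicate 2, 946 lower genes were called without replicate 3 and 96 without replicate 1, and 79, 94 and 104 without WT replicates 1, 2 and 3, the last of which also gave the 164 higher genes. Without E2 replicate 1 and a further array the counts were 152 to 191 higher and 46 to 81 lower; with 1 E2 array left, it is assumed to vary like the other groups. Against E2 at 17 °C the range was 250 (without E2 17 °C replicate 1) to 990 (without E2 29 °C replicate 2), and against ts1/E2 it was 6 to 23 (without E2 replicate 3), with 14 without ts1/E2 replicate 3. Against ts1 it was 177 (without ts1 replicate 4) to 525 (without E2 replicate 1) higher and 41 (without ts1 replicate 4) to 417 (without E2 replicate 2) lower genes, with 416 and 186 lower without E2 replicate 3 and ts1 replicate 6. The replicate numbers do not pair the samples; with a replicate block, 286 genes were higher and 531 lower, 63 were lower without replicate 1, and 12 were called against ts1/E2. With no fold threshold, 306 were higher and 305 lower. The piRNA list had 6 to 14 rises over the alternatives and the oogenesis list 3 to 10.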

Other observations

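The cilium genes and the single genes named next were picked after their values were seen, so they carry no test of a group. Of 16 tested genes of the cilium, 5 were called higher in E2 brains at 29 °C and 0 lower (6 and 0 without replicate 1), where 3.06% (2.88%) of all tested genes were higher, with a median of 0.7 (1.0), beside -0.20 (-0.02) over all tested genes. BBS8, a protein of ciliary transport, rose by 6.64 ± 0.75, Cep290, of the ciliary base, by 4.13 ± 0.63 (4.29 without replicate 1), IFT52 by 2.65 ± 0.67 (3.90), Fam92 by 2.05 ± 0.50 (2.63) and IFT20 by 1.33 ± 0.29 (1.36). IFT52 measured 2.72, 6.52 and 6.42 in E2 against 2.57 on average in WT, so replicate 1 was at the WT level. Rfx, the transcription factor of ciliated neurons, was at -3.28 ± 1.03 and was not called (adjusted p = 0.0605; -1.90 without replicate 1).

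Single genes called higher were ATPsynepsilonL by 4.75 ± 0.63 (5.02), COX7AL by 4.21 ± 0.89 (4.64), COX4L by 2.35 ± 0.46 (1.70) and gammaTub37C, the maternal gamma-tubulin, by 2.80 ± 0.80 (4.04). Replicate 1 measured 3.50 for gammaTub37C, within the WT range of 2.67 to 3.52, and 7.35 and 7.07 were measured in the others. CycJ, a cyclin of the ovary, rose by 5.10 ± 0.40 (5.37). The glutamate receptor gene KaiR1D measured 13.30, 12.84 and 12.83 in E2 and rose by 6.29 ± 0.31 (6.14). Single lower genes were the transcription factors retn by -3.23 ± 0.56 (-3.06) and exex by -2.63 ± 0.26 (-2.91), and Creld, Sil1 and Grp170, by -1.98 ± 0.21 (-1.84), -2.18 ± 0.51 (-1.26) and -1.87 ± 0.44 (-1.02).

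By RefSeq Release 6 annotation, the small chromosome 4 had 10 of 64 tested genes called higher, 15.6%, and 9 of them were called without replicate 1 too. On the other arms the share was 2.12% (X) to 3.69% (3L). The 10 were Zip102B, CG33978, Kif3C, CG32006, Actbeta, yellow-h, CG31997, CG33521, Rnf11 and RhoGAP102A, of which Rnf11 was not called without replicate 1. The median difference of the 64 genes without replicate 1 was 0.03, beside -0.02 over all tested genes. sv and Sox102F on the same chromosome were lower, Sox102F with all arrays only (-3.17 ± 0.93; -2.06).

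Neuropeptide genes stood out in the direct test against ts1 at 29 °C, where 11 of 31 were higher in E2, 17 without replicate 1 and 15 without the 3 arrays that stand apart (E2 29 °C replicate 1, E2 17 °C replicate 2 and ts1 replicate 6). ts1 replicates 5 and 6 had array weights of 0.321 and 0.189, and their part was not tested otherwise. Among all tested genes, 3.31% were higher (271), and 525 and 479 in the other fits. Ilp2, an insulin-like peptide, averaged 9.62 in E2, 9.97 in WT and 3.00 ± 1.62 in ts1, and Ms, the myosuppressin gene, 11.52, 11.60 and 9.37 ± 0.16.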
